A study of Mus musculus with 70 samples.

Results

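The livers of female mice with a myeloid osteopontin knock-in were compared with those of female controls after 24 weeks on a NASH (nonalcoholic steatohepatitis) diet. The comparison holds 8 of the 70 RNA-seq libraries of the series. They were chosen by tissue, sex, diet and genotype as the labels give them: 4 libraries of genotype OpnKI Mye (KI) and 4 of genotype Lyz2.Cre+/+ (called WT here). The series as a whole crosses both genotypes with a control and a NASH diet, in both sexes, in total liver and in sorted liver macrophages. WT mice were therefore not free of transgenes, since they carry Lyz2.Cre, which drives Cre recombinase in cells of the myeloid line. The KI name stands for osteopontin knocked in under that driver, and its label gives neither the copies of Lyz2.Cre nor those of the knock-in allele. The labels name total liver lysate as the source, and they give no strain, age or litter. They do not say whether replicates are separate animals, so p-values measure only the spread between these libraries.

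Osteopontin, the product of Spp1, is a secreted matrix glycoprotein that binds integrins and CD44 and can act as a cytokine. In fatty liver disease it is made by macrophages, cholangiocytes and injured hepatocytes, and it has been linked to fibrosis. Myeloid cells are a small share of the liver, so bulk RNA reads mostly hepatocytes and, behind them, endothelial, stellate, biliary and immune cells. In such samples fewer cells of a type and less RNA per cell cannot be told apart.

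Total counts were 17917827 to 20362747 in KI and 18573961 to 23669846 in WT. Xist, the RNA of the inactive X chromosome, lay at 850.4 to 1217 CPM (counts divided by library size, scaled by TMM), and Y-linked genes had 0 counts in all 8 libraries. The summed hepatocyte markers spanned 98800 to 125600 CPM in KI, while in WT they spanned 107700 to 133700 CPM. The WT libraries fell apart into pairs. On the first principal component of the 16 female liver libraries, which carried 26.7% of the variance, WT 1 and 2 had scores of 32.7 and 29.4, and WT 3 and 4 had -29.5 and -19.1. The 4 KI libraries lay close together at 15.6 to 22.0. On the control diet the KI libraries lay at -44.0 to -29, on the side of WT 3 and 4. The WT control libraries lay at 3.69 to 24.1. The SD of gene-wise log2 differences between WT libraries reached 0.764, against 0.550 at most between KI libraries.

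**Figure D1:**
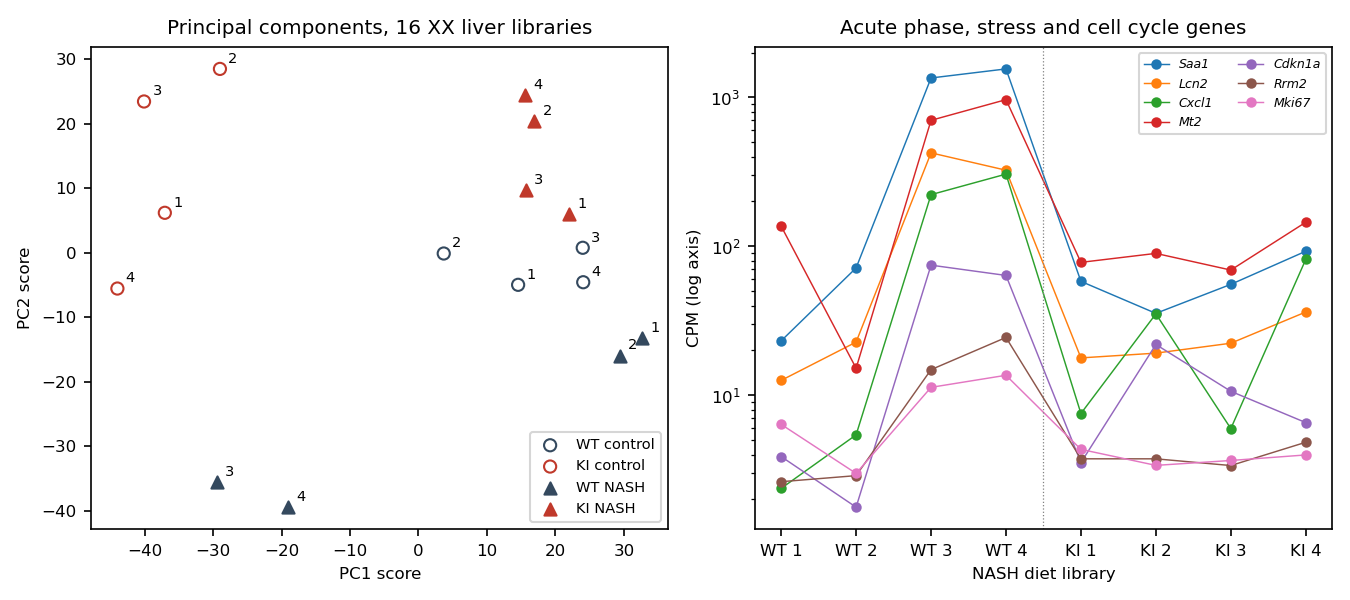
Left, scores of the 16 female liver libraries on the first and second principal component, with the group as colour and symbol and the replicate as number. Right, CPM on a log axis of 7 genes in the 8 NASH diet libraries; WT 3 and 4 stand above the other 6 libraries in every one of the 7 genes.

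Among the genes in which WT 3 and 4 stood apart were several of the acute phase, of stress responses and of the cell cycle, and others outside these groups. Saa1, a serum amyloid made by hepatocytes under inflammatory cytokines, had 23.2, 71.6, 1349 and 1552 CPM in WT 1 to 4 and 58.2, 35.5, 55.6 and 92.7 CPM in KI 1 to 4. Lcn2, an iron-scavenging acute phase protein, had 12.6, 22.8, 424 and 324 CPM in WT and 17.8, 19.2, 22.4 and 36.2 CPM in KI. Cdkn1a, the cell cycle inhibitor p21, had 3.88, 1.77, 74.8 and 63.8 CPM in WT and 3.53, 21.9, 10.6 and 6.56 CPM in KI. In each of these genes WT 1 and 2 lay within or below the KI range and WT 3 and 4 far above it. In the KI control diet libraries these genes ranged widely, at 1293, 224, 45 and 161 CPM of Saa1, 419, 92.8, 43.7 and 182 CPM of Lcn2 and 224, 61, 167 and 196 CPM of Cdkn1a. All these values of Lcn2 and Cdkn1a lay above every KI NASH library, while those of Saa1 overlapped. The labels record no batch, day or feeding state that could be set beside this split. The count of calls, the list medians and single genes are therefore also given without WT 3 and 4 or without WT 1 and 2, a choice made after seeing the data. Of 38 gene lists, the median changed sign in 12 without WT 3 and 4 and in 6 without WT 1 and 2.

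Spp1, the gene knocked in, was not higher in whole KI liver. It had 26.1, 30.2, 52.9 and 26.5 CPM in KI 1 to 4 and 49.3, 86.2, 95.5 and 85.9 CPM in WT 1 to 4. The highest KI library lay just above the lowest WT library, and all others were separate. The fitted log2 difference of -1.22 ± 0.28 (SE, as for all fitted differences below) did not pass edgeR's quasi-likelihood test (adjusted p = 0.16). It passed without WT 1 and 2 (-1.42, adjusted p = 0.015) and not without WT 3 and 4 (-0.99, adjusted p = 0.44). On the control diet Spp1 was at 28.8 ± 12.2 CPM (SD, n = 4) in KI and 27.1 ± 3.98 CPM (SD, n = 4) in WT. In sorted female macrophages on the NASH diet the lowest and highest of 6 KI libraries had 2.21 and 97.1 CPM, and those of 6 WT libraries 1.19 and 11.8 CPM (log2 difference 2.01, adjusted p = 0.16).

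Of 11 tested genes of the osteopontin list, the ligand included, 9 were below 0 in the fit, with a median of -0.16. By edgeR's test 0 passed, and 4 had an unadjusted p under 0.05 (13% of all genes). DESeq2 called 2 of them lower, Spp1 and Itga9. Itga9, an integrin chain that binds osteopontin, was the only member whose groups did not overlap. It had 38.4, 36.2, 31.8 and 32.8 CPM in KI and 39.9, 57.4, 51 and 54.8 CPM in WT, a log2 difference of -0.55 ± 0.12 (adjusted p = 0.12). Cd44, the hyaluronan receptor that also binds osteopontin, had 24, 20.4, 26.8 and 22.9 CPM in KI and 11.8, 25.8, 35.2 and 26.5 CPM in WT. Itgav, the alpha chain of several osteopontin-binding integrins, overlapped as well, with a log2 difference of -0.12. Itgb6 had too few counts to be tested.

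Over all genes, 12 of 13315 passed an adjusted p of 0.05 (0.0901%). Of these, 9 rose (0.0676%) and 3 fell (0.0225%) in KI. A further tool, DESeq2, called 158 genes (1.19% of those with an adjusted p), 64 higher (0.481%) and 94 lower (0.706%), all 12 of edgeR's among them. Below, called and passed refer to edgeR unless DESeq2 is named. At an unadjusted p under 0.05 there were 1728 genes (13%), and in 855 genes (6.42%) the KI and WT libraries did not overlap, 460 with KI above (3.45%) and 395 with KI below (2.97%). These shares over all genes are the background for every count within a gene list in this report. The count of 12 depended on which libraries were kept. It was 1 (0.00736%) without WT 3 and 4 and 1208 (8.9%), with 588 higher and 620 lower (4.57%), without WT 1 and 2. Single libraries moved it to 29 (without KI 1), to 6 (without KI 2 or KI 3) and to 5 (without WT 4). With 1 pair of WT libraries left, the fit takes its spread from the other groups too. Each of the 12 genes kept its direction without WT 3 and 4. The log2 difference hardly moved in Trim34b (6.19 to 6.15), Trim6 (3.78 to 3.72) and Amigo1 (1.14 to 1.15). It shrank in H2-T24 (1.23 to 0.85) and Osmr (-1.21 to -0.87).

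**Figure D2:**
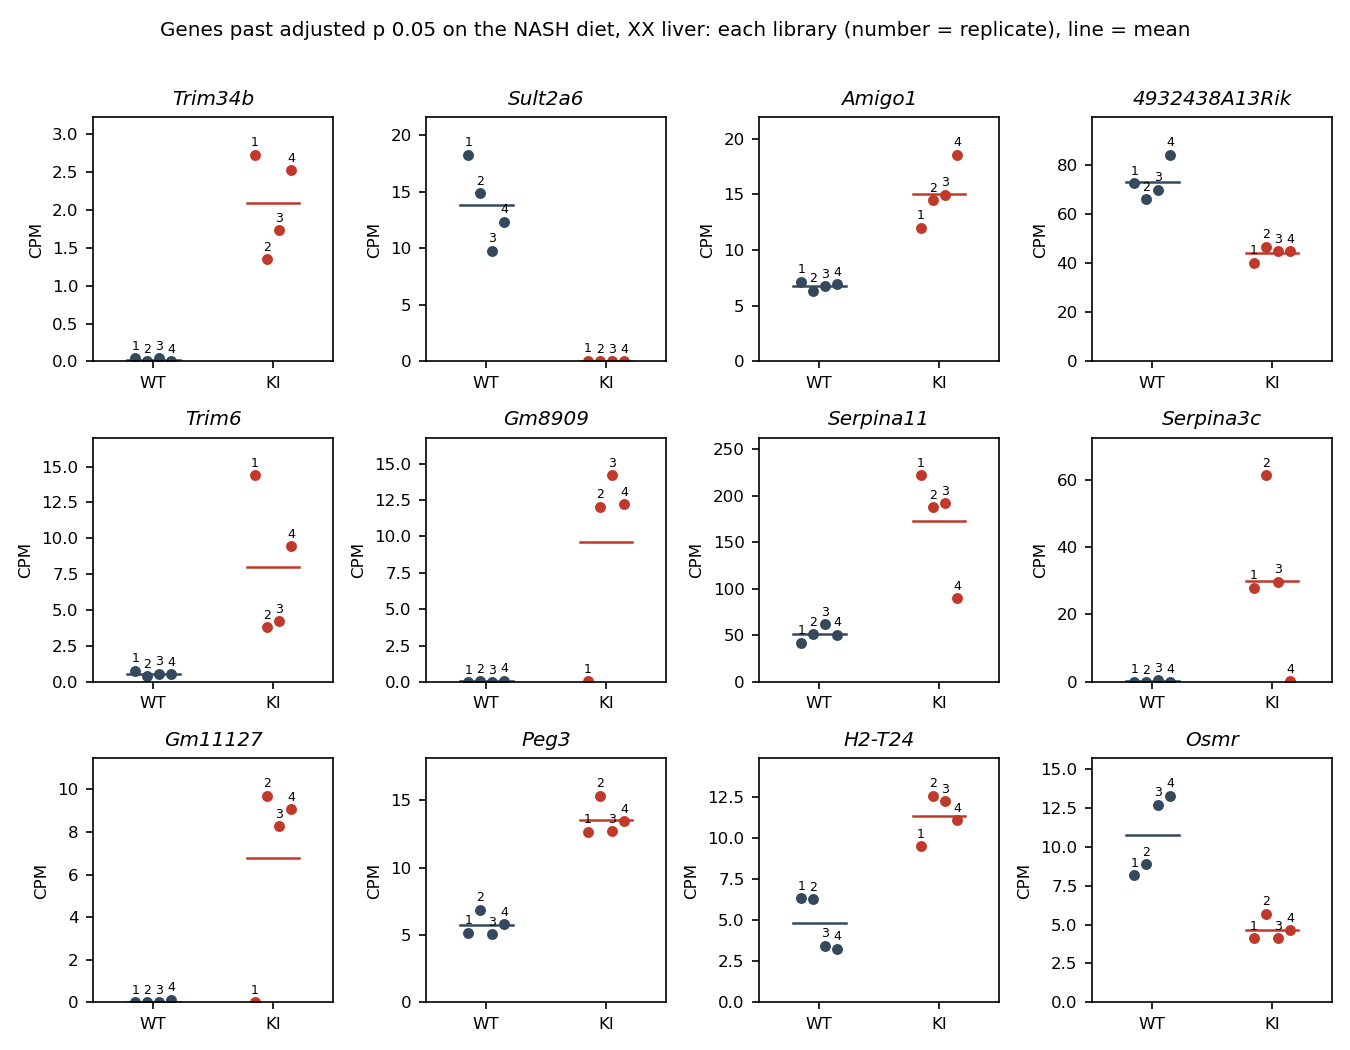
CPM of the 12 genes past the threshold in each NASH diet library (points with replicate numbers; the line is the mean of 4). In Gm8909 and Gm11127 KI 1 lies at the WT level, and in Serpina3c KI 4 does; in the other 9 genes the groups do not overlap.

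Sult2a6 was the clearest loss. It belongs to the cytosolic sulfotransferases that conjugate steroids and bile acids, a family with female-biased members in mouse liver. It lies on chromosome 7 at 14222403 to 14254870. WT 1 to 4 had 18.3, 14.9, 9.79 and 12.4 CPM, from 225 to 424 counts each, and KI had 1 count in KI 1 and 0 in KI 2 to 4 (adjusted p = 0.0016). It was also at 0 in all 4 KI control libraries, against 13.5, 2.57, 1.86 and 6.09 CPM in WT control. In male liver on the NASH diet it was at 0 in every library of both genotypes. This gene was the one still called without WT 3 and 4 (adjusted p = 0.019). Its relative Sult2a5 had 10.5, 0.271, 13.5 and 5.32 CPM in KI and 54.2, 62.3, 30.1 and 43.9 CPM in WT, groups that did not overlap, but did not pass (adjusted p = 0.23). Reads can be shared among these near-identical genes, so values of single members are uncertain.

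Trim34b and Trim6, neighbours on chromosome 7, rose together. Both encode tripartite motif proteins, a family of ubiquitin ligases with roles in antiviral defence. Trim34b (mm10, 104329471 to 104336617) had 2.73, 1.35, 1.74 and 2.53 CPM in KI 1 to 4, from 30 to 51 counts, and 0 or 1 count in each WT library (adjusted p = 0.0016). Trim6 (104218795 to 104235152) had 14.4, 3.84, 4.25 and 9.46 CPM in KI and 0.776, 0.406, 0.565 and 0.536 CPM in WT, a log2 fold change of 3.78 ± 0.51 (adjusted p = 0.0039). The same was seen on the control diet, at 2.00, 3.61, 1.84 and 0.97 CPM of Trim34b in KI 1 to 4 and 0.14, 0, 0 and 0.0451 CPM in WT, and 5.90, 8.38, 3.73 and 2.28 CPM of Trim6 in KI and 0.187, 0.428, 0.28 and 0.586 CPM in WT. In male liver on the NASH diet both genes were expressed in both genotypes, unlike in female WT. Trim34b had a mean of 2.04 CPM in male KI and 1.55 CPM in male WT (adjusted p = 0.54). Trim6 had 7.0 CPM in male KI and 5.8 CPM in male WT (adjusted p = 0.75). The female and male differences themselves differed in Trim34b (adjusted p = 0.0038) and in Trim6 (adjusted p = 0.028).

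A group of 3 genes of the major histocompatibility region of chromosome 17 rose in KI. H2-T24, a nonclassical class I gene (36003471 to 36020800), had 9.48, 12.6, 12.2 and 11.1 CPM in KI and 6.34, 6.29, 3.44 and 3.26 CPM in WT, a log2 fold change of 1.23 ± 0.22 (adjusted p = 0.044). Gm8909 (36143812 to 36168602) had 0.0535, 12.1, 14.2 and 12.2 CPM in KI 1 to 4 and 3 counts in all WT libraries together (adjusted p = 0.0096). Gm11127 (36055816 to 36058371) had 0, 9.71, 8.26 and 9.09 CPM in KI 1 to 4 and likewise 3 counts in WT (adjusted p = 0.022). Leaving out 1 library lost the call of Gm11127 in 7 of 8 fits, of H2-T24 in 5 and of Gm8909 in 1. Both class I-like genes were at the WT level in KI 1 and well above it in KI 2, 3 and 4. In KI control liver they were on in every library, at 21.5, 13.6, 9.74 and 15.3 CPM of Gm8909 and 20.4, 12.6, 9.15 and 13 CPM of Gm11127. H2-Ea-ps, the class II pseudogene of the same region, showed this pattern too, with 0, 12.2, 18.7 and 20.9 CPM in KI and 0 counts in every WT library of either diet, though it did not pass (adjusted p = 0.12). In male liver on the NASH diet H2-T24 had a mean of 8.15 CPM in KI and 3.54 CPM in WT, with overlap. Gm8909 had means of 0.97 and 0.082 CPM there. Gm11127 and H2-Ea-ps had means of 6.345 and 8.80 CPM in male KI and 0 CPM in every male WT library. Class I sequences are close copies of each other, and how reads were shared among them is not given in the sources used here.

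Serpina3c and Serpina11, protease inhibitor genes of the cluster on chromosome 12, rose as well. Serpina3c (104146907 to 104153929) had 27.9, 61.3, 29.8 and 0.161 CPM in KI 1 to 4 and 0.0431, 0, 0.609 and 0.0447 CPM in WT 1 to 4, so that KI 4 lay within the WT range (adjusted p = 0.022). Serpina11 (103980243 to 103989968) had 222, 188, 192 and 90.1 CPM in KI and 42.3, 51.3, 61.9 and 50.6 CPM in WT, with KI 4 again the lowest KI library (1.75 ± 0.28, adjusted p = 0.022). On the control diet KI 4 was the lowest KI library in both genes, with 102, 146, 157 and 42 CPM of Serpina3c and 253, 319, 370.3 and 138 CPM of Serpina11 in KI 1 to 4. These are other libraries, and the labels give no link between replicate numbers across diets. Each of these calls was lost in 5 of the 8 fits that left out 1 library. In male liver on the NASH diet Serpina11 ran from 122 to 508 CPM in KI and from 54.8 to 71.1 CPM in WT. Serpina3c ran from 0.593 to 12.05 CPM in male KI and from 0.118 to 0.709 CPM in male WT, with overlap. Of the 12 called genes, 9 lie on chromosomes 7, 12 and 17, which hold 7.7%, 3.49% and 5.11% of the tested genes with a position. The strain background of the mice is not in the labels, and its part in these differences was not tested.

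Peg3, an imprinted zinc finger gene expressed from the paternal copy, rose from 5.17, 6.89, 5.09 and 5.81 CPM in WT to 12.7, 15.3, 12.7 and 13.4 CPM in KI (1.24 ± 0.20, adjusted p = 0.023). It lies on chromosome 7 at 6703892 to 6730462, far from the Trim genes, and was not called on the control diet (0.51, adjusted p = 0.13). Its call on the NASH diet was lost in 6 of the 8 fits that left out 1 library. Male liver on that diet had 4.35 to 8.31 CPM of Peg3 in KI and 1.04 to 2.945 CPM in WT. Amigo1, a leucine-rich repeat adhesion molecule (chromosome 3, 108186289 to 108192286), had 12, 14.5, 15 and 18.6 CPM in KI and 7.16, 6.34, 6.74 and 6.93 CPM in WT (1.14 ± 0.15, adjusted p = 0.0026). Its direction was opposite on the control diet (-0.49, adjusted p = 0.049), and the difference between the diets passed (interaction 1.63, adjusted p = 0.0042). The gene 4932438A13Rik, which encodes a large bridge-like lipid transfer protein (chromosome 3, 36863063 to 37053033), had 40.3, 46.8, 44.9 and 44.9 CPM in KI and 72.7, 66.3, 70.1 and 84.3 CPM in WT (-0.73 ± 0.093, adjusted p = 0.0026). In all 3 genes every KI library lay on 1 side of every WT library. In male liver 4932438A13Rik was higher in KI (0.62, adjusted p = 5.7e-04), and the sexes differed (adjusted p = 3.8e-04). Amigo1 had a mean of 11.75 CPM in male KI and 8.07 CPM in male WT on the NASH diet.

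Lyz2, the lysozyme gene that carries Cre in the usual Lyz2.Cre allele, split the KI group. It had 1.23, 1.17, 62.9 and 38.1 CPM in KI 1 to 4 and 1.29, 1.82, 1.91 and 2.19 CPM in WT 1 to 4. KI 1 and 2 were at the WT level, and KI 3 and 4 were far above it, and the group difference did not pass (adjusted p = 0.16). By edgeR it passed without KI 1 (adjusted p = 0.039), and DESeq2 called Lyz2 higher with all libraries (adjusted p = 0.0061). All 4 KI control libraries were high (34.1, 31.6, 45 and 22.7 CPM) and all 4 WT control libraries low (1.96, 1.09, 1.96 and 2.48 CPM). The labels do not give the Lyz2.Cre copies of each KI library.

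Osmr was the called gene with a known place in hepatic cytokine signalling. It encodes the receptor chain for oncostatin M, which pairs with Il6st and signals through STAT3, and lies on chromosome 15 at 6813568 to 6874968. KI 1 to 4 had 4.12, 5.69, 4.11 and 4.62 CPM and WT 1 to 4 had 8.15, 8.87, 12.7 and 13.3 CPM, so the groups did not overlap and WT 3 and 4 were the highest. Osmr fell by 1.21 on the log2 scale (SE 0.22, adjusted p = 0.046). On the control diet it was not called (0.25, adjusted p = 0.52), and the interaction with diet passed (-1.46, adjusted p = 0.019). Without WT 3 and 4 the difference was -0.87 (adjusted p = 0.4), and leaving out any 1 of 7 of the 8 libraries also lost the call. In male liver it was -0.33 (adjusted p = 0.43).

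The rest of the oncostatin M and STAT3 list held no other call among 13 tested genes, 11 of them below 0 in the fit, with a median of -0.15. DESeq2 likewise called Osmr alone. Without WT 3 and 4 the median was 0.19, with 8 members above 0 and 5 below, and without WT 1 and 2 it was -0.59. The ligands Osm and Il6 had too few counts in liver to be tested. In sorted female macrophages the lowest and highest Osm values were 8.97 and 52.2 CPM in KI, and 3.78 and 9.87 CPM in WT (adjusted p = 0.047). Socs3, the feedback inhibitor that STAT3 switches on, had 9.57, 8.37, 98 and 183 CPM in WT and 7.23, 12.5, 9.77 and 63.6 CPM in KI. Its difference was -1.69 with all libraries and 1.37 without WT 3 and 4, so its direction rests on them. Stat3 itself behaved likewise (-0.15 and 0.50), as did Il6ra, the interleukin 6 receptor (-0.76 and 0.19). Il6st, the shared signal chain, had 212, 176, 173 and 184 CPM in KI and 164, 210.1, 193 and 198 CPM in WT. Arg2, the mitochondrial arginase, had 2.30, 1.45, 1.74 and 0.43 CPM in KI and 0.561, 0.76, 1.48 and 3.17 CPM in WT, with no separation.

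Genes of sterol and fatty acid synthesis were mostly below 0 in the fit, and edgeR called none of them. Of 24 cholesterol genes, 23 were below 0 in the fit (50.6% of all genes were), and in 9 every KI library lay below every WT library (2.97% of all genes). An unadjusted p under 0.05 was reached by 9 (13% of all genes), and DESeq2 called 0. The list's median was -0.62, against -0.0033 over all tested genes. Sqle, squalene epoxidase, had 5.51, 1.90, 5.20 and 8.66 CPM in KI and 27.5, 21.1, 20.5 and 21.3 CPM in WT (-2.10 ± 0.76, adjusted p = 0.27). The groups of Sqle did not overlap. Pmvk and Mvd, which act on phosphorylated forms of mevalonate, were separated too (-1.19 ± 0.40, adjusted p = 0.25 and -1.54 ± 0.65, adjusted p = 0.34).

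The fatty acid synthesis list had 17 of 19 members below 0, 7 of 19 without overlap (2.97% of all genes lay below in this way) and a median of -0.90. By edgeR 0 passed, 9 with an unadjusted p under 0.05 (13% of all genes), and DESeq2 called 3 lower, Scd1, Scd2 and Thrsp. Scd1, the desaturase that makes oleate, had 20480, 12220, 11890 and 9314 CPM in KI and 40820, 25990, 20520 and 34780 CPM in WT (-1.18 ± 0.34, adjusted p = 0.21). Thrsp, a lipogenic regulator, had 524, 409, 189.9 and 149 CPM in KI and 822, 749, 999 and 784 CPM in WT (-1.40 ± 0.36, adjusted p = 0.19). Pnpla3, the lipid droplet hydrolase whose human form is tied to fatty liver, had 16.5, 12.1, 12 and 13.2 CPM in KI and 135, 34, 23.4 and 83 CPM in WT (-2.36 ± 0.68, adjusted p = 0.22). The KI libraries of Pnpla3 were tight, and the WT libraries ranged widely. Scd2 overlapped (-1.24 ± 0.31, adjusted p = 0.19). Plin4, a perilipin of the lipid droplet list, had 12, 12.7, 11.9 and 5.70 CPM in KI and 23.2, 21.5, 77.9 and 58.6 CPM in WT (-2.10 ± 0.48, adjusted p = 0.16), with WT 3 and 4 highest. DESeq2 called Plin4 lower (adjusted p = 0.0012).

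These groups kept their side of 0 in both subsets of WT libraries. The cholesterol median was -0.88 without WT 3 and 4 and -0.36 without WT 1 and 2. The fatty acid synthesis median was -1.01 and -0.50. On the control diet the medians had the other sign, 0.52 for cholesterol and 0.84 for fatty acid synthesis. Scd1 had 29610, 32180, 27670 and 68740 CPM in KI control and 24140, 16170, 12140 and 21740 CPM in WT control. The difference between diets passed for Scd1 (interaction -2.27, adjusted p = 0.019), Thrsp (-2.70, adjusted p = 0.014), Pnpla3 (-4.28, adjusted p = 0.023) and Plin4 (-5.03, adjusted p = 0.0071). The interaction was called for 635 genes in all (4.77%), and for 5 of 19 fatty acid and 1 of 24 cholesterol genes.

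**Figure D3:**
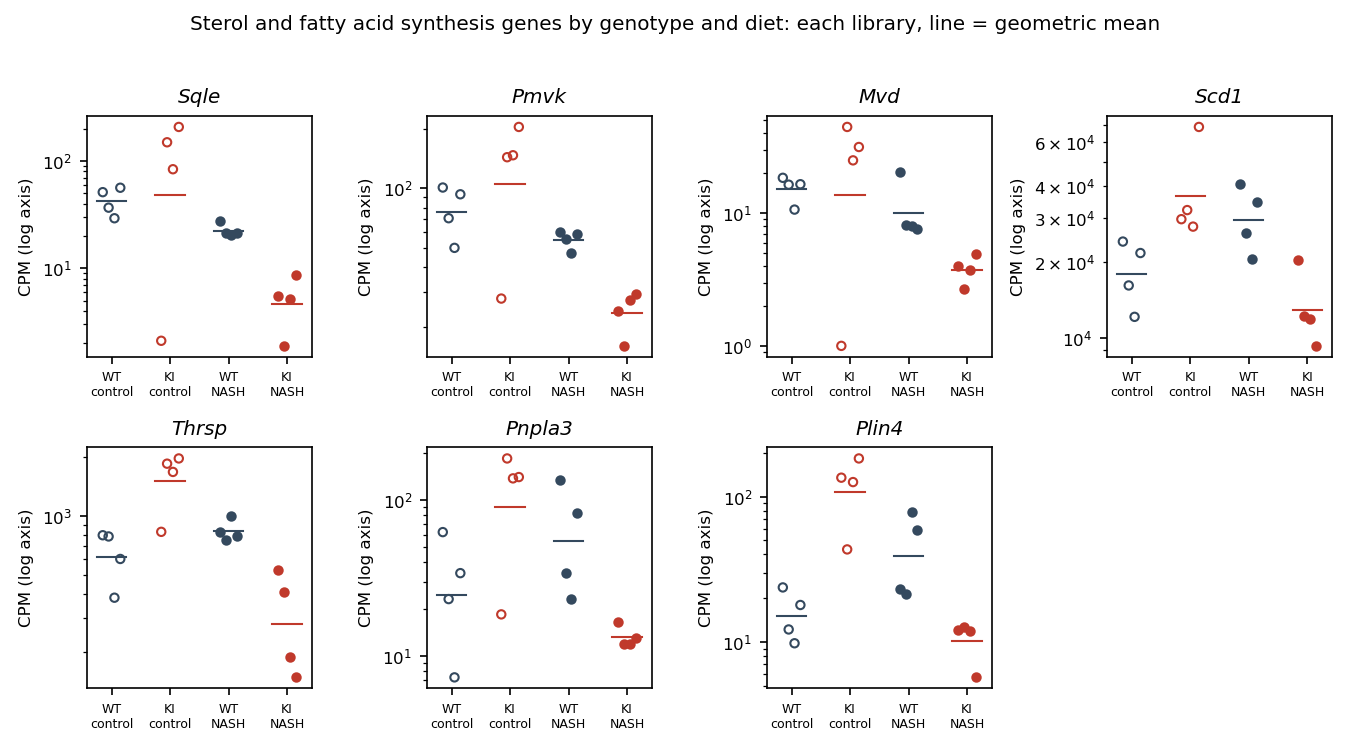
CPM on a log axis of 7 genes of sterol and fatty acid synthesis and lipid droplets in the 4 female liver groups (each point is a library, the line is the geometric mean; open points are control diet, filled points NASH diet). In all 7 genes every KI NASH library lies below every WT NASH library, and in all but Mvd the KI control line lies above the WT control line.

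Fatty acid oxidation genes were shifted the other way by little. Of 19 members 17 were above 0 (49.4% of all genes were), 4 had every KI library above every WT library (3.45% of all genes) and 0 passed by edgeR or DESeq2, 2 having an unadjusted p under 0.05, with a median of 0.10. The median was 0.14 without WT 3 and 4 and 0.094 without WT 1 and 2. Cpt1a, the gate of mitochondrial fatty acid import, had 899.6, 832, 839 and 929.5 CPM in KI and 555, 728, 502 and 543 CPM in WT (0.59 ± 0.18, adjusted p = 0.23). Ucp2, a mitochondrial carrier of fatty and inflamed liver, had 64.2, 75.7, 81.5 and 57.3 CPM in KI and 123, 116, 153 and 129 CPM in WT and did not pass (-0.90 ± 0.17, adjusted p = 0.07).

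**Figure D4:**
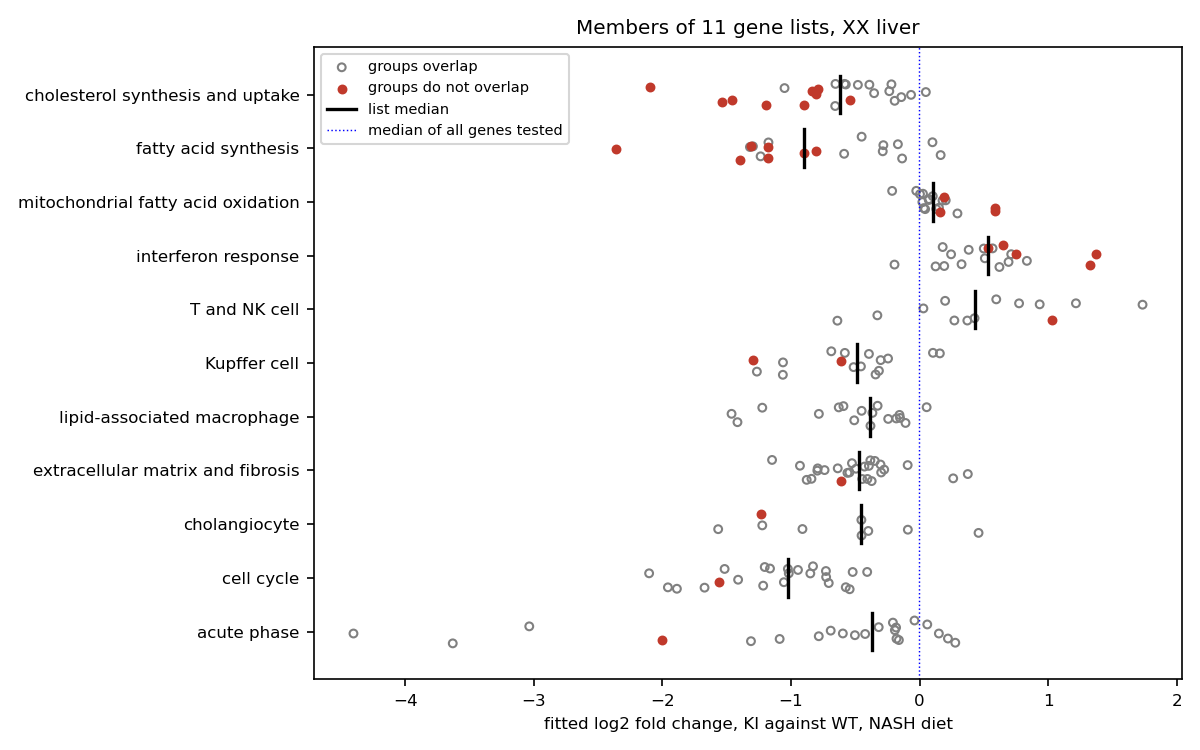
Fitted log2 difference, KI against WT on the NASH diet, of the tested members of 11 gene lists (points; filled where the 4 KI and 4 WT libraries do not overlap), with each list's median as a bar and the median of all genes as a dotted line. The sterol and fatty acid synthesis lists lie left of the line and the interferon list right of it.

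Interferon response genes were mostly above 0 in the fit. This held for 18 of 19 tested members, 5 had every KI library above every WT library, and the median was 0.53. By edgeR 0 passed, 9 with an unadjusted p under 0.05 (13% of all genes), and DESeq2 called 1 higher, Ifi44. Ifi44, an interferon-induced gene, had 23.2, 20.4, 32.7 and 16.7 CPM in KI and 12.3, 7.61, 8.79 and 7.20 CPM in WT (1.37 ± 0.29, adjusted p = 0.11). Ifit1, which binds foreign RNA caps, had 18.7, 31.4, 47.5 and 26.8 CPM in KI and 13.9, 10.1, 13.7 and 12 CPM in WT (1.32 ± 0.44, adjusted p = 0.25). KI 3 was the highest library in both. Oas1a, a sensor of double-stranded RNA, overlapped (0.83 ± 0.31, adjusted p = 0.27). Rtp4, which lies outside the list and also answers to interferon, had 38.5, 39.1, 43.7 and 37.9 CPM in KI and 25.1, 20.4, 15.9 and 17.7 CPM in WT (1.01 ± 0.24, adjusted p = 0.16).

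The interferon median was 0.59 without WT 3 and 4 and 0.48 without WT 1 and 2, and 0.52 on the control diet. In male liver it was -0.43, with 0 of 19 members called, where 36.6% of all genes were. Without WT 1 and 2, Ifi44 passed as higher (adjusted p = 0.021) and Mx2, an antiviral GTPase named here after its value was seen, as lower (-0.81, adjusted p = 0.036). Ifi44 and Ifit1 were among the 5 members without overlap, as were Ifit3 and Gbp3, named here after their values were seen.

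The promoters of Ifit1, Ifit3 and Gbp3 are shown because they hold the core of the interferon-stimulated response element, searched as GAAA, any 2 bases and GAAA, on both strands. Windows of 300 bases, 250 before and 50 after the start, were read from RefSeq (GRCm38.p6, the build named mm10). The motif was in 9 of 17 windows of list members (52.9%) and in 3.44% of all 32851 windows. Windows matched 14 of the 19 members by symbol, 9 of which held the motif, and Ifi44 had no match in its window. Gbp3 had a further window without the motif, which is not shown. Ifit1 (19:34640639-34640938, plus strand) and Ifit3 (19:34583279-34583578, plus strand) are neighbours on chromosome 19, and Gbp3 (3:142559794-142560093, plus strand) is on chromosome 3. Capitals mark the matches, all lying on the minus strand, so that they read TTTC, any 2 bases and TTTC here, 2 in each window and overlapping in Gbp3.
Ifit1: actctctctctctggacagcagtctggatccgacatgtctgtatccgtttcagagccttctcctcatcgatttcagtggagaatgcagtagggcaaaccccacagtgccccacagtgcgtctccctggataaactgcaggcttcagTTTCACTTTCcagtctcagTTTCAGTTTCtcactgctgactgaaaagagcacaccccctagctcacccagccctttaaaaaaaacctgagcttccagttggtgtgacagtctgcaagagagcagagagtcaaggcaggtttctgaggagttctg
Ifit3: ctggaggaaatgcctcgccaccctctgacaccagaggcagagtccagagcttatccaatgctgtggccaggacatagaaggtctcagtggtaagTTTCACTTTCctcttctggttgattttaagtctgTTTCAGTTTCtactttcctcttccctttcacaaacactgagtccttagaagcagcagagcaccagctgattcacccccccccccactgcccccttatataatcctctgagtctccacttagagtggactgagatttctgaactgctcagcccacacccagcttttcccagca
Gbp3: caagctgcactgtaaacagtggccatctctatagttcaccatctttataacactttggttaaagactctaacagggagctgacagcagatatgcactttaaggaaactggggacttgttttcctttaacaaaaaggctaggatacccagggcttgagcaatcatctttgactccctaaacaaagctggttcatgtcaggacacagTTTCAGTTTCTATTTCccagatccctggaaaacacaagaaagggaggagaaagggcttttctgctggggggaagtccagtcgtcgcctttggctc
A match describes these letters only and does not show that a factor bound there in these livers.

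Tnfsf10, the death ligand TRAIL and also an interferon target, had 102, 109.6, 98 and 118 CPM in KI and 55.8, 17.9, 6.09 and 4.42 CPM in WT, so every KI library was above every WT library (2.34 ± 0.61, adjusted p = 0.19). WT 3 and 4 were the lowest. The difference was 1.54 without them and 4.34 without WT 1 and 2, where it passed (adjusted p = 8.1e-04). In male liver Tnfsf10 was higher in KI too (2.47, adjusted p = 0.0033).

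Macrophage markers were mostly below 0. Of 16 Kupffer cell genes 14 were below 0, 2 of them without overlap (2.97% of all genes lay below in this way), with a median of -0.48. By edgeR 0 were called, 7 with an unadjusted p under 0.05 (13% of all genes), and DESeq2 called 2 lower, Timd4 and Folr2. Folr2, a folate receptor of resident macrophages, had 17.5, 14.3, 12.7 and 12.9 CPM in KI and 20.1, 19.9, 25.4 and 22.4 CPM in WT (-0.61 ± 0.13, adjusted p = 0.12). Xlr was the other separated member (-1.29 ± 0.36, adjusted p = 0.21). Timd4, a receptor for dying cells on long-lived Kupffer cells, had 10.8, 6.59, 7.90 and 7.85 CPM in KI and 9.01, 11.9, 24.7 and 23.5 CPM in WT, with WT 3 and 4 the highest. Vsig4, a complement receptor, had 56.9, 51.7, 52.5 and 49.3 CPM in KI and 53.2, 70.5, 95 and 81.3 CPM in WT. The Kupffer median shrank to -0.18 without WT 3 and 4 and was -0.69 without WT 1 and 2, where 7 members were called lower (4.57% of all genes were). Marco, a scavenger receptor of this list, turned from -1.26 to 2.16 without WT 3 and 4.

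The lipid-associated macrophage list, genes of macrophages that gather around fat-laden cells, had 16 of 17 members below 0, with a median of -0.38. No single member was without overlap. The summed level of the list ran from 1255 to 1571 CPM in the KI libraries, against 1601 to 1804 CPM in the WT libraries. Without Spp1 these ranges were 1225 to 1544 CPM and 1552 to 1718 CPM. By edgeR 0 were called, 3 with an unadjusted p under 0.05, a share near that of all genes (13%). DESeq2 called 2 lower, Spp1, which is on this list too, and Atp6v0d2. Its median was -0.25 without WT 3 and 4 and -0.62 without WT 1 and 2. Atp6v0d2, a proton pump subunit, had 14, 3.70, 5.93 and 4.79 CPM in KI and 14, 20.7, 24.7 and 18.8 CPM in WT (-1.46 ± 0.40, adjusted p = 0.2). KI 1 was at the level of WT 1. In male liver 16 of the 17 genes were lower in KI by the same test, with a median of -2.07. Of all genes, 18% were called lower in male KI liver, and the female minus male difference was called for 9 of the 17 (11.3% of all genes).

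T and NK cell markers lay above 0 in 11 of 13 tested genes, with a median of 0.43. Of these 0 were called by edgeR or DESeq2, 3 having an unadjusted p under 0.05 (13% of all genes). The median was 0.42 without WT 3 and 4 and 0.49 without WT 1 and 2. Cd8a, the co-receptor of cytotoxic T cells, had 0.91, 1.53, 1.10 and 0.43 CPM in KI and 0.216, 0.456, 0.304 and 0.224 CPM in WT (1.73 ± 0.52, adjusted p = 0.22), with KI 4 below the highest WT library. Gzma, a granzyme, was the only separated member (1.03 ± 0.47, adjusted p = 0.36). Their levels are close to the limit of detection, as 3 counts correspond to 0.129 to 0.161 CPM in these libraries. The summed level of the list ran from 9.77 to 14.7 CPM in the KI libraries, against 6.00 to 10.2 CPM in the WT libraries. Trac and Trbc2, the defining receptor constants, were not analysed here.

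Matrix genes were below 0 in 24 of 26 tested members, with a median of -0.47. The groups did not overlap in 1 of them, a share near that of all genes (2.97%). By edgeR 0 were called, 10 with an unadjusted p under 0.05 (13% of all genes), and DESeq2 called 1 lower, Col4a1. Col14a1, a fibril-associated collagen, had 70.5, 89.8, 97.8 and 63.6 CPM in KI and 119, 151, 116 and 107 CPM in WT (-0.61 ± 0.18, adjusted p = 0.23). Col4a1, a basement membrane collagen, had 37.3, 47.8, 56.1 and 37.7 CPM in KI and 53.9, 63.8, 119.8 and 72.9 CPM in WT (-0.79 ± 0.21, adjusted p = 0.19). WT 3 was the highest library of Col4a1, and its difference between the diets passed (interaction -1.62, adjusted p = 0.012). Lum, a proteoglycan, overlapped (-0.84 ± 0.30, adjusted p = 0.26). The matrix median was -0.51 without WT 3 and 4 and -0.47 without WT 1 and 2. In male liver 23 of 26 were called lower in KI (18% of all genes were), with a median of -1.52. The sexes differed in 4 of 26, a share near that of all genes (11.3%).

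Cholangiocyte markers, those of bile duct cells, were also mostly below 0. Of 9 tested members 8 were below 0, with a median of -0.45. By edgeR 0 passed, 5 having an unadjusted p under 0.05 (13% of all genes). The median was -0.60 without WT 3 and 4 and -0.49 without WT 1 and 2. Spp1 is on this list too, and it was the 1 member that DESeq2 called. Their summed level ran from 66.5 to 93.6 CPM in the KI libraries, against 114.3 to 151.5 CPM in the WT libraries. Without Spp1 these ranges overlapped, at 37.2 to 59.3 CPM in the KI libraries and 28.7 to 65.3 CPM in the WT libraries, and 7 of 8 members were below 0 with a median of -0.45. Epcam, an adhesion molecule of ductular cells, had 0.642, 1.40, 2.46 and 1.29 CPM in KI and 2.54, 4.41, 2.48 and 4.33 CPM in WT (-1.23 ± 0.36, adjusted p = 0.22). Sox9, their transcription factor, overlapped (-0.91 ± 0.37, adjusted p = 0.33). Cftr and Cldn4 had too few counts to be tested.

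The medians of the cell cycle and acute phase lists changed sign without WT 3 and 4. All 23 tested cell cycle genes were below 0 with a median of -1.02 and 1 without overlap (2.97% of all genes lay below in this way). By edgeR or DESeq2 0 were called, 6 having an unadjusted p under 0.05 (13% of all genes). The median became 0.12 without WT 3 and 4 and -1.65 without WT 1 and 2, where 6 members were called lower (4.57% of all genes were). Rrm2, a ribonucleotide reductase subunit, had 3.75, 3.75, 3.38 and 4.84 CPM in KI and 2.63, 2.89, 14.9 and 24.4 CPM in WT. Mki67, the proliferation marker, had 4.34, 3.39, 3.65 and 3.98 CPM in KI and 6.38, 2.99, 11.3 and 13.6 CPM in WT. Aurka, a mitotic kinase, was the separated member (0.428, 0.542, 0.411 and 0.484 CPM in KI and 0.949, 0.913, 1.13 and 2.55 CPM in WT, -1.56 ± 0.44, adjusted p = 0.21). The acute phase median went from -0.37 to 0.38 without WT 3 and 4. Saa2 was at -4.40 with all libraries, where DESeq2 called it lower (adjusted p = 0.019), and at -0.012 without WT 3 and 4. Saa1 turned from -3.63 to 0.36 and Lcn2 from -3.04 to 0.44. Outside that list, Cxcl1, a neutrophil chemokine, turned from -2.04 to 3.08, and Mt2, a metal-binding stress protein, from -2.25 to 0.33.

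**Figure D5:**
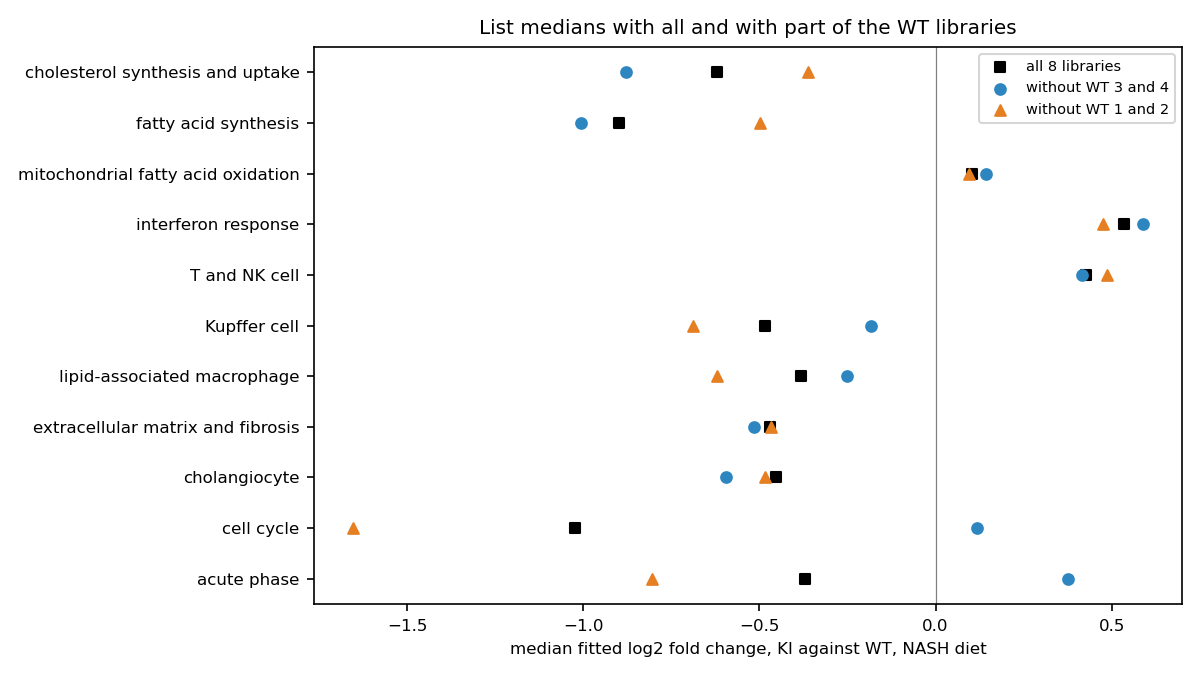
Median fitted log2 difference, KI against WT on the NASH diet, of 11 gene lists with all 8 libraries, without WT 3 and 4, and without WT 1 and 2. The cell cycle and acute phase medians cross 0 when WT 3 and 4 are left out; the other 9 keep their side.

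Further genes were named by size or separation and did not pass edgeR's test. Sult1e1, the estrogen sulfotransferase, had 0.696, 0.181, 0.0457 and 0.215 CPM in KI and 9.92, 2.64, 28.5 and 2.77 CPM in WT (adjusted p = 0.07). Its KI values were at or near the level of 3 counts except in KI 1, and the difference between diets passed (adjusted p = 0.01). Mtap, an enzyme of methionine salvage, had 39.8, 39.3, 37 and 41.4 CPM in KI and 23.4, 23.9, 18.8 and 16 CPM in WT (0.94 ± 0.18, adjusted p = 0.07). Abcc2, the canalicular exporter of conjugated bilirubin, had 412, 469, 423 and 399 CPM in KI and 801, 647, 755 and 493 CPM in WT (-0.66 ± 0.17, adjusted p = 0.19). Anxa2, an annexin of injured liver, was separated as well (-0.89 ± 0.18, adjusted p = 0.11), as were Lhfp (-0.83 ± 0.16, adjusted p = 0.082) and the low-count gene Tox2 (-2.03 ± 0.42, adjusted p = 0.11). Slc10a2, a bile acid importer, had 14.7, 6.73, 6.07 and 3.39 CPM in KI and 8.97, 45.7, 195 and 114 CPM in WT, with WT 3 and 4 highest (-3.56 ± 0.85, adjusted p = 0.16). Cyp2b10, a P450 induced through the receptor CAR, had 3.85, 0.406, 0.685 and 0.376 CPM in KI and 5.61, 6.03, 18.5 and 5.14 CPM in WT and differed between the diets (interaction -7.38, adjusted p = 0.0083). Among those of these genes that are members of a gene list, DESeq2 called Abcc2 (adjusted p = 0.021) and Slc10a2 (adjusted p = 0.0058) lower.

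Within the KI group, KI 2 and KI 4 each stood apart in a set of genes. KI 2 was low in female-biased hepatocyte genes, below the other 7 libraries. Cyp3a41a, a female-specific P450, had 188, 1.04, 154 and 231 CPM in KI and 298, 120.2, 314 and 276 CPM in WT. Cyp3a16 had 132, 0.226, 104 and 181 CPM in KI, and Sult2a1 had 104, 2.53, 155 and 162 CPM in KI and 232, 245, 132 and 232 CPM in WT. Fos and Jun, immediate early genes, were highest in KI 4 and KI 2, with 2.09, 121, 9.54 and 366 CPM of Fos in KI against 4.27, 2.38, 11.7 and 9.56 CPM in WT, and 18, 282, 120.0 and 472 CPM of Jun against 24.1, 17.5, 77.9 and 120.4 CPM. None of these differences between the groups passed edgeR's test, and DESeq2 called Fos.

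Set beside the other comparisons of KI with WT, the female NASH liver gave few calls. On the control diet 1008 genes were called in female liver (7.57%), in male liver on the NASH diet 4758 of 13010 (36.6%), and in sorted female macrophages on the NASH diet 72 of 12838 (0.561%). The female and male NASH effects differed for 1464 genes (11.3%). The tables of the sexes were deposited separately, so sex and table cannot be told apart. Of the 12 called genes, 9 were also called in the same direction on the control diet, 1 in the opposite direction (Amigo1), and 2 (Amigo1 and Osmr) differed between the diets. Of the 158 genes that DESeq2 called, 26 were called in the same direction on the control diet.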

How the data were processed

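RNA of total liver lysate was extracted with an RNAspin Mini kit and made into TruSeq Stranded mRNA libraries, per the labels' protocols. The authors deposited raw counts per gene symbol, one table per sex and tissue; the submitters' processing notes name the build mm10. Which aligner, counter, annotation and strand mode were used is not given in the sources used here.

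Counts of the 16 female liver libraries (4 groups of 4) were fitted together with edgeR 4.0.16 in R 4.3.3 (filterByExpr with a minimum count of 10 and a minimum total of 15, TMM, quasi-likelihood test, Benjamini-Hochberg adjustment, threshold 0.05), which tested 13315 of 24982 genes. Contrasts were KI against WT on each diet and their interaction. The male liver and the female macrophage tables served for side-by-side values. Alternatives used DESeq2 1.42.0, limma 3.58.1 (voom with sample weights), RLE scaling, no filter, fewer libraries and a replicate block. The scripts were tested on simulated data. CPM are TMM-scaled. Positions come from a GRCm38 annotation and matched 13123 of 13315 genes (98.6%).

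Gene lists and members were chosen with earlier results of these data known. Named genes were the called ones, the osteopontin and oncostatin M lists, Lyz2 and Cpt1a, up to 4 members of smallest p per list, fills of smallest p up to 8 per direction, the 8 widest gaps between groups per direction, and the 10 genes of largest spread within each group. H2-Ea-ps, Ifit3, Gbp3 and Mx2 were added after their values were seen. Some genes that the rule names are not reported here.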

Additional observations from a re-analysis of the deposited data

Results flagged for a closer look

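In 13 of 151 groups of 4 libraries, 1 library stood apart from the other 3 by Dixon's criterion. The chance rate of about 1 in 20 holds for independent groups not chosen by their values. Some of these genes were named for wide gaps or large spread in these same libraries, so the count cannot be set against that rate. In KI these were Spp1 in KI 3 (52.9 CPM), Socs3 in KI 4 (63.6 CPM), Plin4 in KI 4 (5.70 CPM), Gm8909 in KI 1 (0.0535 CPM), Gm11127 in KI 1 (0 CPM) and Cyp2b10 in KI 1 (3.85 CPM). In WT they were Sqle in WT 1 (27.5 CPM), Mvd in WT 1 (20.5 CPM), Serpina3c in WT 3 (0.609 CPM), Cyp2b10 in WT 3 (18.5 CPM), Sult2a1 in WT 3 (132.4 CPM), Aurka in WT 4 (2.55 CPM) and Anxa2 in WT 4 (18.1 CPM).

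The KI difference itself differed between the diets for 635 genes by the interaction test. Among the named genes it was larger (more positive) on the NASH than on the control diet by 1.63 in Amigo1 on the log2 scale. The NASH minus control value was negative in the lipid genes Scd1 (-2.27), Scd2 (-2.21), Thrsp (-2.70), Pnpla3 (-4.28) and Plin4 (-5.03). It was negative in the acute phase and stress genes Saa1 (-6.98), Saa2 (-7.90), Lcn2 (-7.11), Mt2 (-7.08) and Cdkn1a (-7.58). It was also negative in Osmr (-1.46), Il6ra (-2.23), Itgb3 (-2.52), Col4a1 (-1.62), Flt1 (-0.996), Rrm2 (-3.63), Sult1e1 (-8.03), Tox2 (-2.44), Anxa2 (-1.08), Slc10a2 (-5.04) and Cyp2b10 (-7.38). No interaction was fitted without WT 3 and 4 together. Without them the NASH diet difference itself turned from below to above 0 in Saa1, Lcn2, Mt2, Cdkn1a, Il6ra and Rrm2. In Saa2 it was -0.012. The interaction also draws on the KI control libraries, in which Lcn2 and Cdkn1a lay above every KI NASH library.

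The KI difference on the NASH diet also differed between female and male liver, in 1464 genes. Female minus male values above 0 were found in Trim34b (5.77), Trim6 (3.5), Lyz2 (6.55), Mtap (0.59) and Anxa2 (1.87). That of Trim34b rests on near-zero counts in female WT. In Lyz2 the WT groups themselves lay far apart, with male WT at 137 to 271 CPM and female WT near 2 CPM. Values below 0 were found in 4932438A13Rik (-1.35), Il6ra (-2.13), Il6st (-0.82), Pmvk (-1.20), Pnpla3 (-3.69), Rrm2 (-2.36), Saa1 (-5.32), Saa2 (-6.14), Sult1e1 (-7.76), Abcc2 (-1.28), Flt1 (-1.19) and Slc10a2 (-4.33). The sexes were deposited as separate tables, so sex and table cannot be told apart.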

How the results depend on the processing

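The count of 12 called genes was 158 with DESeq2, 6 with only the 8 NASH diet libraries, and between 5 (without WT 4) and 29 (without KI 1) when 1 library was left out; RLE scaling gave 12, no filter 13 and sample weights 8. Without WT 3 and 4 it was 1, and without WT 1 and 2 it was 1208, both chosen after seeing the data. With the replicate number as a block it was 7, and the block gave 784 for the control diet, 464 for the interaction and 1124 for the difference between the sexes. Same-numbered KI and WT libraries correlated at 0.00049, -0.072, 0.12 and 0.11 in their deviations. Differently numbered libraries correlated at -0.10 to 0.20. These values show no clear pairing by number, and with 4 libraries per group they cannot exclude one.

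DESeq2 gave 1630 against 1008 on the control diet, 1253 against 635 for the interaction and 532 against 72 in macrophages. Leaving out 1 library gave 393 (without WT control 1) to 1179 on the control diet, 254 (without KI control 4) to 1198 (without WT NASH 1) for the interaction, and 934 (without female WT NASH 4) to 1777 for the sexes. With 1 library left out the log2 difference ranged from -0.30 to 0.66 in Arg2, -0.31 to 0.14 in Cd44, -0.10 to 0.010 in Il6st, -0.21 to 0.0063 in Itgav, -0.46 to 0.26 in Mx2 and -0.35 to 0.12 in Stat3.

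Without WT 3 and 4 the sign turned in 30 of the 192 genes that the naming rule covers. Among the 82 genes of the text that were followed this way it turned in 14, to 0.33 in Cd44, 0.14 in Itgav, 0.50 in Stat3, 1.37 in Socs3, 1.17 in Arg2, 0.19 in Il6ra, 2.16 in Marco, 0.51 in Rrm2, 0.36 in Saa1, 0.44 in Lcn2, 3.08 in Cxcl1, 0.33 in Mt2, 0.90 in Mx2 and 1.91 in Cdkn1a. The cause was not tested. Depth limits the low genes: 3 counts stand for 0.129 to 0.161 CPM in these libraries.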

Other observations

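Markers of other resident liver cells, fixed as lists with earlier results of these data known, gave no call by edgeR or DESeq2. Of 14 sinusoidal endothelial genes 9 were below 0, with a median of -0.18. An unadjusted p under 0.05 was found in 4 (13% of all genes), and 3 had every KI library below every WT library (2.97% of all genes had). These 3 were Flt1, a receptor for vascular growth factor (16.3, 19, 16.7 and 16.9 CPM in KI and 21.3, 23.2, 26.1 and 28.8 CPM in WT, -0.53, adjusted p = 0.27), Pecam1, an endothelial junction protein (-0.33, adjusted p = 0.33), and Stab1, a scavenger receptor (-0.31, adjusted p = 0.36). The endothelial median was -0.31 without WT 3 and 4 and 0.081 without WT 1 and 2. Of 14 stellate cell genes 12 were below 0, with a median of -0.13, and 2 had an unadjusted p under 0.05, near the share of all genes (13%). Reln, a secreted glycoprotein of stellate cells, was the separated member (73.6, 106, 102 and 97.9 CPM in KI and 125, 135, 120.0 and 112 CPM in WT, -0.37, adjusted p = 0.36).

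Genes of the unfolded protein and integrated stress response were above 0 in 14 of 19, with a median of 0.28, and those of the urea cycle below 0 in 11 of 12, with a median of -0.24. Without WT 3 and 4 the urea cycle median was 0.026, with 7 members above 0 and 5 below, and that of the stress response 0.42. Oxidative phosphorylation genes were below 0 in 23 of 30, with a median of -0.07. Without WT 1 and 2 their median was -0.0083, with 14 above 0 and 16 below. None of the members of these 3 lists passed by edgeR's quasi-likelihood test or by DESeq2, and 3 had an unadjusted p under 0.05 (13% of all genes).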
